A study of Citrus maxima and Citrus sinensis with 12 samples.

Results

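The miR394 family of citrus root tips was followed in small RNA libraries of C. grandis, the pummelo that the labels list under Citrus maxima, and C. sinensis, sweet orange, grown with excess or ordinary boron. Its members were the entries of the deposited count table whose name by homology is that of miR394. There were 2 such entries of 172, both named ath-miR394a after the Arabidopsis miRNA, and they share 1 mature sequence of the 126 distinct ones in the table. The 4 groups, of 3 libraries each, were C. grandis at 400 µM H3BO3, C. grandis at 10 µM, C. sinensis at 400 µM and C. sinensis at 10 µM, where H3BO3 is boric acid, the boron source, and the labels call 400 µM toxic and 10 µM the control. In every group the seedlings were 11 weeks old when sand culture began, and watering with nutrient solution at the stated boron level went on for 15 weeks before root tips were taken. Each library was made from RNA mixed from 5 replicates, and whether libraries of a group come from separate plants was not given, so p-values measure only the spread between these libraries. The table holds miRNAs alone, so the root-tip label could not be checked against marker genes.

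miR394 is an old plant miRNA found across flowering plants. In Arabidopsis it directs cleavage of the transcript of LEAF CURLING RESPONSIVENESS (LCR), an F-box protein, the class of proteins that select other proteins for ubiquitination. In the Arabidopsis shoot it is made in the surface layer of the meristem and moves inward, where lowering LCR keeps cells competent to act as stem cells, and the same pair is also known for leaf shape and for responses to salt, drought and cold. Plant miRNAs are cut from the stem of a hairpin precursor as a duplex of the mature strand and a star strand, and they pair with their targets along most of their length.

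The mature sequence is shown first because it is the item that was counted, with bases 2 to 8 in capitals. It is followed, for each locus, by the mature strand and the deposited star strand of that locus, with capitals for the bases that had no partner when the 2 strands were folded together. All are given 5′ to 3′.
miR394 mature: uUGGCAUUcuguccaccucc
scaffold_5_23062 mature in its duplex: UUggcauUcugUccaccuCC
scaffold_5_23062 star: agguggCuagCaugccUAAC
scaffold_5_25986 mature in its duplex: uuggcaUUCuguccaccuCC
scaffold_5_25986 star: aggugggcaUACugccaaCU

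The 2 loci give the same mature strand from different precursors. Their star strands differed by an edit distance of 6. At scaffold_5_23062, 14 of the 20 mature bases were paired with the star, 1 of them as a G-U pair, and at scaffold_5_25986 15 were paired, again with 1 G-U pair. The authors' hairpin prediction score was 3.5 at scaffold_5_23062 and 3.9 at scaffold_5_25986, against a median of 624.3 over the 170 entries with a score. Both scores lie in the lower part of that range, with 23 and 32 entries below them, and 64 entries scored below 10. The deposited folding energy, whose unit the file does not name, was −58.7 for the first hairpin and −67.4 for the second, where the median entry had −72.25.

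Both precursor windows of 250 nt lie on the plus strand of scaffold 5, at 11402285 to 11402534 for scaffold_5_23062 and 42405325 to 42405574 for scaffold_5_25986. Their starts are 31003040 bases apart. The genome build and a gene annotation of these scaffolds are not given in the sources used here, so whether a window overlaps a gene was not analysed here. The table has 24 entries on scaffold 5. The entry nearest to scaffold_5_23062 is a miR165a-3p locus 1440460 bases away, and the entry nearest to scaffold_5_25986 is a miR171b locus 70487 bases away.

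The miR394 sequence stands alone in the table. No other distinct sequence shares its bases 2 to 8 (0 of 126 apart from itself), and the nearest other sequences, 4 of them, are at an edit distance of 9. It is 20 nt long, a length it shares with 10 others among the 11 sequences of 20 nt, whereas 41 sequences have 21 nt and the whole range is 19 to 25 nt. It begins with U, as do 61 of the 126 sequences. Its GC content of 55.0% lies above the median of 45.8%, and 21 sequences have a higher one.

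Because both loci give the same strand, their reads could not be assigned to 1 locus. The counts at the 2 loci were equal in 10 of the 12 libraries and 1 read apart in the others, with 782 reads at each locus in all. The exceptions were C. grandis at 10 µM replicate 2, with 114 and 115 reads, and C. sinensis at 400 µM replicate 1, with 43 and 42. All values below are those of scaffold_5_23062 and describe the sequence once. The depth behind these values was 479090 to 1062488 counts per library over all entries (282149 to 577150 with shared sequences counted a single time).

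miR394 was a low-abundance miRNA in these root tips. Its mean over all libraries was 83.7 CPM (counts scaled to the library size, here with edgeR's trimmed-mean factors), rank 100 among the 124 distinct sequences abundant enough to be tested, whose median was 406 CPM. Within single libraries its rank among all 126 distinct sequences ran from 82 to 108.

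The level was highest in C. grandis at 400 µM, where the libraries had 161, 54 and 80 reads, or 180, 84.0 and 117 CPM. In C. grandis at 10 µM the libraries had 48, 114 and 73 reads, or 59.9, 113 and 91.1 CPM. In C. sinensis at 400 µM they had 43, 53 and 51 reads, or 68.2, 60.7 and 58.1 CPM. The C. sinensis libraries at 400 µM were thus all below the lowest C. grandis library at that boron level, while those of C. grandis at both boron levels overlapped. In C. sinensis at 10 µM the libraries had 20, 50 and 35 reads, or 42.6, 62.5 and 66.7 CPM, which overlapped with C. sinensis at 400 µM.

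The means were 127 ± 49.0 CPM in C. grandis at 400 µM, 88.1 ± 26.8 in C. grandis at 10 µM, 62.3 ± 5.26 in C. sinensis at 400 µM and 57.3 ± 12.8 in C. sinensis at 10 µM (SD, n = 3 each). Neighbours in this order overlapped in every case. The reads summed over each group were 295, 235, 147 and 105 in the same order. Counting error alone, from the reads of each library, gives a coefficient of variation per library of 10.2%, 11.4%, 14.5% and 17.3%. The measured one was 38.5%, 30.5%, 8.43% and 22.4%. The C. grandis libraries therefore spread more than counting error in both groups, and the C. sinensis libraries at 400 µM spread less than it. The highest value, 180 CPM with an exact 95% counting interval of 154 to 211 CPM, came from C. grandis at 400 µM replicate 1, the library with the largest total of the 12. The intervals cover counting error only, and in bulk tissue fewer cells that make a miRNA cannot be told apart from less of it per cell.

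**Figure D1:**
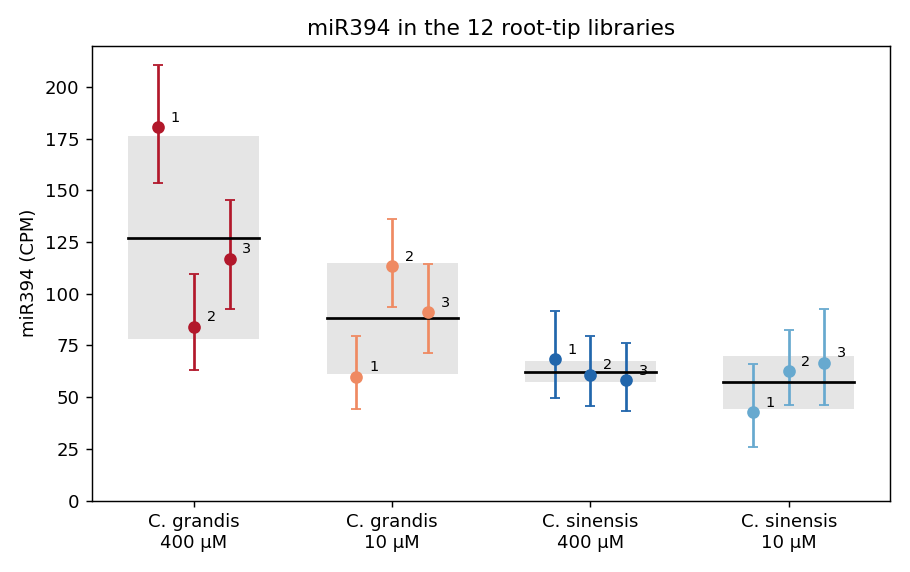
CPM of the miR394 sequence in each of the 12 libraries (points, with exact 95% counting intervals) and the mean of each group of 3 (black line) with its SD (grey band), in the order C. grandis at 400 µM, C. grandis at 10 µM, C. sinensis at 400 µM, C. sinensis at 10 µM. The C. grandis libraries reach from 59.9 to 180 CPM and the C. sinensis libraries from 42.6 to 68.2 CPM.

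Excess boron gave no called change of miR394 in C. grandis. Its fitted level at 400 µM was 1.44-fold that at 10 µM (95% interval 0.887 to 2.35), a log2 difference of 0.53 with a standard error of 0.32 and an adjusted p of 0.426 by edgeR's quasi-likelihood test with Benjamini-Hochberg adjustment over 170 entries. The interval spans no change and a doubling alike, so a change of either size was not separable at this spread. Of all entries 1.18% were called in this comparison, and neither miR394 locus was among them. The value depended on the scaling and on single libraries: it was 0.26 with total-count scaling, where the median of all sequences stood at −0.17 and not at 0.05, and 0.19 without C. grandis at 400 µM replicate 1, the library with the highest miR394 level.

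In C. sinensis the fitted level at 400 µM was 1.08-fold that at 10 µM (95% interval 0.646 to 1.81; log2 0.11, standard error 0.34, adjusted p = 0.964 by edgeR). The percentage of entries called in this comparison was 0, with 3 entries under 0.05 before adjustment, or 1.76%. The sign of the miR394 value was not stable. It was −0.017 without C. sinensis at 400 µM replicate 1 and −0.077 without C. sinensis at 10 µM replicate 1.

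The boron difference in C. grandis minus that in C. sinensis was 0.42 on the log2 scale (95% interval −0.60 to 1.44, standard error 0.47, edgeR adjusted p = 0.987), so the 2 species were not shown to respond differently. The percentage of entries called was 0 here too, with 9 entries, 5.29%, under 0.05 before adjustment. Averaged over both species, miR394 at 400 µM was 1.25-fold its level at 10 µM (95% interval 0.877 to 1.78, edgeR adjusted p = 0.453), in a comparison that called 0.588% of entries. Among the 124 distinct sequences, 21 had a higher log2 fold change than miR394 in C. grandis and 49 in C. sinensis. The authors' deposited table of boron-responsive miRNAs, which holds 48 entries and lists no absolute log2 fold change under 0.594, names miR394 in 0 of them.

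In these libraries miR394 was higher in C. grandis than in C. sinensis, though the call depended on single libraries and was absent at 10 µM. Over both boron levels the 6 C. grandis libraries ran from 59.9 to 180 CPM with a median of 102, and the 6 C. sinensis libraries from 42.6 to 68.2 CPM with a median of 61.6. The means were 108 ± 41.3 CPM in C. grandis and 59.8 ± 9.21 CPM in C. sinensis (SD, n = 6 each). The overlap was confined to C. grandis at 10 µM replicate 1, at 59.9 CPM, which lay below 4 C. sinensis libraries.

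The fitted difference was 1.77-fold (95% interval 1.24 to 2.53), or 0.83 ± 0.24 on the log2 scale (standard error), with an edgeR adjusted p of 0.0124. Species differences were common in these libraries: 54.7% of entries were called in this comparison, 32.9% as higher in C. grandis and 21.8% as lower, so the call itself does not set miR394 apart. The balance of directions depended on the scaling and the filter: 56 of 93 calls were higher, against 33 of 74 with median-of-ratios scaling, 59 of 87 with total-count scaling, 37 of 79 with DESeq2 and 28 of 67 with no filter. Of the 124 distinct sequences 22 had a higher log2 fold change than miR394, and the median sequence stood at 0.16, so that miR394 lay 0.66 above it. The log2 CPM of single libraries gave a difference of 0.76 with p = 0.0108 in an exact two-sided permutation test over 924 regroupings, and 0.79 with p = 0.0152 when each library was first centred on the median of its sequences, both chosen after seeing the data. These regroupings ignored the boron level and moved libraries across it. Neither permutation p was adjusted for the other sequences, so they are not further support for the call.

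At 400 µM the groups did not overlap, with 84.0 to 180 CPM in C. grandis and 58.1 to 68.2 CPM in C. sinensis. The fitted difference was 2.05-fold (95% interval 1.24 to 3.37; log2 1.03, standard error 0.33, edgeR adjusted p = 0.0324). In this comparison 28.8% of entries were called, 20.6% as higher in C. grandis and 8.24% as lower, and 28.8% had C. grandis libraries that all lay above those of C. sinensis. Of the 49 calls 35 were higher, against 21 of 47 with median-of-ratios scaling, 21 of 49 with DESeq2, 17 of 42 with no filter, 14 of 37 with a CPM minimum of 10 and 14 of 62 without C. grandis at 400 µM replicate 2. Of the distinct sequences 15 had a higher log2 fold change than miR394. With 3 libraries against 3 an exact two-sided permutation test cannot go below 0.1, the value it gave. The edgeR call of miR394 at 400 µM was kept in 5 of 20 alternatives. It was lost with 1 entry kept per sequence (0.96, adjusted p = 0.0637).

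At 10 µM the groups overlapped, with 59.9 to 113 CPM in C. grandis and 42.6 to 66.7 CPM in C. sinensis. The fitted difference was 1.53-fold (95% interval 0.923 to 2.54; log2 0.62, standard error 0.34, edgeR adjusted p = 0.180) and did not pass the threshold, in a comparison that called 28.2% of entries, 16.5% as higher and 11.8% as lower. Of the 48 calls 28 were higher, against 23 of 52 with median-of-ratios scaling, 34 of 47 with total-count scaling, 27 of 58 with DESeq2 and 21 of 42 with no filter. A call at 400 µM and none at 10 µM does not show that the species differ more under excess boron: that contrast is the difference of boron responses given above, 0.42 with an interval on both sides of 0.

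The species call depended on single libraries. Averaged over both levels it was kept in 6 of the 12 fits that left out 1 library and lost in the other 6. It was lost without C. grandis at 10 µM replicate 2 (0.48, adjusted p = 0.121) or replicate 3 (0.65, 0.0529), without C. sinensis at 400 µM replicate 1 (0.67, 0.0637), 2 (0.64, 0.0809) or 3 (0.57, 0.0949), and without C. sinensis at 10 µM replicate 1 (0.55, 0.108). All 12 values stayed above 0. At 400 µM the call was kept in 3 of the 12 fits, those without C. grandis at 10 µM replicate 1 or C. sinensis at 10 µM replicate 2 or 3. It was lost without any C. grandis library at 400 µM (0.69 without replicate 1, 0.86 without 2 and 1.09 without 3), without any C. sinensis library at 400 µM (0.81, 0.74 and 0.60 for replicates 1, 2 and 3), and at 0.72 each without C. grandis at 10 µM replicate 2 or 3 or C. sinensis at 10 µM replicate 1. In the fits that gave 0.72 at 400 µM the median of all sequences was −0.07, against 0.15 with all 12 libraries, and miR394 lay 0.79 above it, against 0.89.

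**Figure D2:**
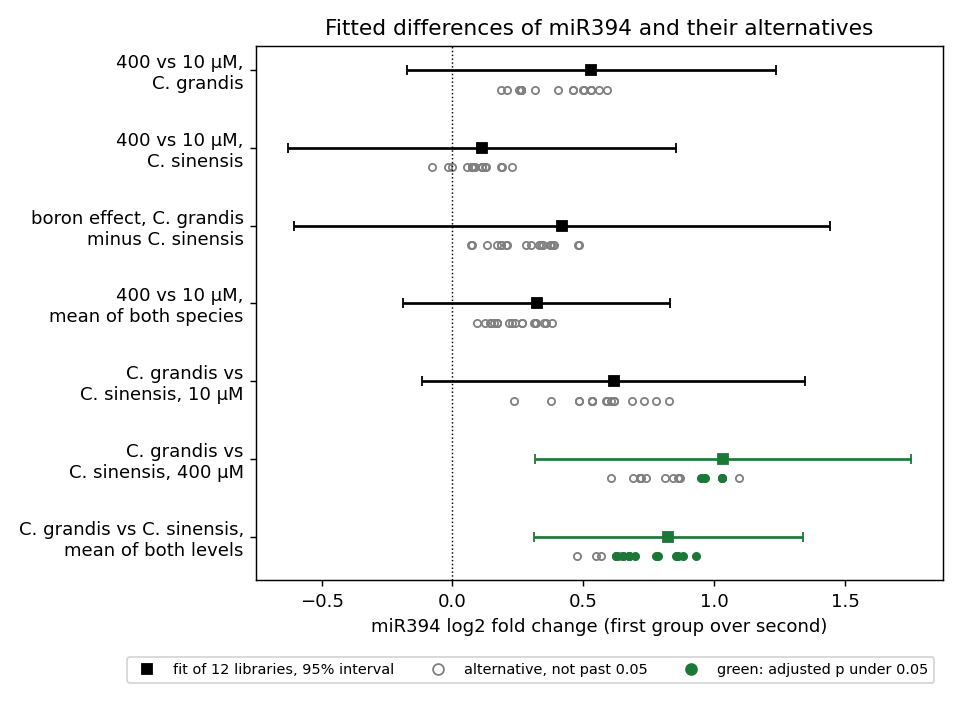
Fitted log2 fold change of miR394 in 7 comparisons (squares, with 95% intervals), and below each the value under each alternative setting of the same fit (circles); green marks an adjusted p under 0.05. The species difference averaged over both boron levels, 0.83, and that at 400 µM, 1.03, are the comparisons in which the fit of 12 libraries passed, and the boron comparisons have intervals on both sides of 0.

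The other sequences whose levels followed miR394 most closely were named by the Pearson correlation of log2 CPM over the 12 libraries, a description without a test, since all values of a library share its depth and scaling. Among 123 other sequences the median correlation was 0.18. The 5 highest were miR157a-5p, which targets SPL transcription factor transcripts, at 0.91, miR160a-5p (scaffold_2_8873, 1 of 3 sequences of that name), which targets transcripts of auxin response factors, at 0.90, miR164a, which targets NAC transcription factor transcripts, at 0.80, miR172a-5p, from the star arm of the miRNA that targets AP2-type transcripts, at 0.79, and miR162a-3p, which targets the transcript of DICER-LIKE1, at 0.78. After the 4 group means were taken out, the correlations were 0.78, 0.76, 0.46, 0.42 and 0.34 in that order. These were computed for the 5 picked sequences alone, so no median over other sequences stands beside them.

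All 5 had the same order of group means as miR394, with C. grandis at 400 µM first, then C. grandis at 10 µM, C. sinensis at 400 µM and C. sinensis at 10 µM. Picking by correlation with miR394 favours such an order, and the share of all sequences with it was not computed. The means of miR157a-5p were 2792 ± 846, 1501 ± 536, 1180 ± 247 and 882 ± 223 CPM, and those of miR160a-5p 206 ± 39.5, 182 ± 22.7, 153 ± 5.18 and 137 ± 15.4 CPM (SD, n = 3 each). miR157a-5p was highest in the same library as miR394, C. grandis at 400 µM replicate 1, at 3763 CPM, and its lowest C. grandis library, at 882 CPM, was also that of miR394, C. grandis at 10 µM replicate 1. The means of miR172a-5p were 189 ± 63.1, 124 ± 54.4, 62.0 ± 28.2 and 44.3 ± 27.7 CPM, a wider gap between the species than that of miR394. Since these sequences were picked for following miR394, their own species differences, the gap of miR172a-5p included, are not further evidence.

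**Figure D3:**
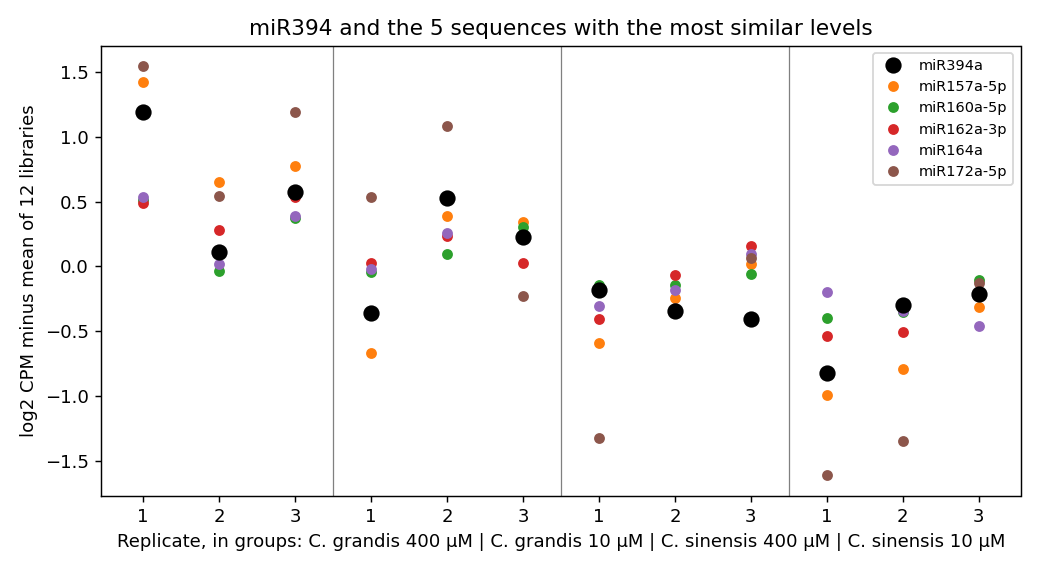
log2 CPM of miR394 (black) and of the 5 sequences most correlated with it, each minus its mean over 12 libraries, by library. In C. grandis at 400 µM replicate 1 miR394 stood 1.19 above its own mean and miR157a-5p 1.42 above, and in C. sinensis at 10 µM replicate 1 they stood at −0.83 and −0.99.

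Of the families whose targets are F-box transcripts, miR394 and miR2111 had entries in the table used here, and no miR393 entry was found in it. miR2111a-5p, which moves from shoot to root in legumes and targets a kelch-repeat F-box transcript there, was scarcer than miR394, at 25.6 ± 7.93, 19.8 ± 10.0, 13.1 ± 8.84 and 21.2 ± 20.5 CPM in the group order above (SD, n = 3 each). It passed in none of the 7 comparisons, and its species difference averaged over both levels was 0.51 on the log2 scale (standard error 0.49, edgeR adjusted p = 0.387).

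miR394 was also set among miRNA families that pattern meristems and organs (miR160, miR164, miR165, miR166, miR171, miR319, miR390 and miR394), 19 distinct sequences tested. In the boron comparisons 0 of the 19 were called, although 14 in C. grandis and 17 in C. sinensis had a log2 fold change above 0, against 70 and 68 of all 124 sequences. Counts above 0 shift with the scaling, as the medians given for C. grandis show. Averaged over both levels, 6 of the 19 were called higher in C. grandis, miR394 among them, and 4 lower, against 39 higher and 23 lower of all 124. The 6 include miR160a-5p (scaffold_2_8873) and miR164a, which were picked above for following miR394. The median log2 fold change of the 19 was 0.23, against 0.16 over all sequences.

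The members with the smallest p moved in both directions. miR390a-5p, which starts the production of the small RNAs that target auxin response factors, was 0.93 lower in C. grandis on the log2 scale (edgeR adjusted p = 0.00123). miR171b-3p, which targets GRAS transcription factor transcripts, was 1.24 higher (adjusted p = 0.00123), and miR164b-3p, from the star arm of a miR164 precursor, 2.79 higher (adjusted p = 0.00567). The calls of all 3 were kept in 12 of 12 fits that left out 1 library. The size for miR164b-3p moved with single libraries: it was 1.76 without C. grandis at 10 µM replicate 3, which held 921 CPM, and 1.93 without C. grandis at 400 µM replicate 2.

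At 400 µM 3 of the 19 patterning sequences were higher, among them miR394 and miR171b-3p (1.17, edgeR adjusted p = 0.0240), and 2 lower, among them miR390a-5p (−1.11, adjusted p = 0.00681), whose call was kept in 12 of 12 fits without a library. Of all 124 sequences 22 were higher and 11 lower at that level. At 10 µM, where 22 of the 124 were higher and 14 lower, 2 of the 19 were higher, miR164b-3p (3.90, adjusted p = 0.0131) and miR171b-3p (1.30, adjusted p = 0.0148), and 3 lower, among them a miR319g (−0.71, adjusted p = 0.0401). Leaving out C. grandis at 10 µM replicate 3 or C. sinensis at 10 µM replicate 2 or 3 ended the call of miR164b-3p (2.01, 3.86 and 3.61). Each of C. grandis at 10 µM replicate 2 and C. sinensis at 10 µM replicates 1 and 2 ended that of miR171b-3p (1.11 to 1.13), and miR171b-3p at 400 µM lost its call in 8 of the 12 fits (0.81 to 1.04), those without C. grandis at 400 µM replicate 1 or 3, C. grandis at 10 µM replicate 2 or 3, any C. sinensis library at 400 µM or C. sinensis at 10 µM replicate 1. The call of miR319g was lost without C. grandis at 10 µM replicate 1 or 2 or any C. sinensis library at 10 µM (−0.64 to −0.77).

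A further list held families that regulate growth and stress responses (miR159, miR319, miR394 and miR396), 15 distinct sequences tested. None of the 15 was called in the boron comparisons (0 in each), with 13 in C. grandis and 11 in C. sinensis above 0, against 70 and 68 of all 124 sequences. In the species comparison averaged over both levels 3 of the 15 were higher in C. grandis, against 39 of all 124 sequences, and 3 were lower, against 23 of 124. The 3 higher ones were miR394, 1 of the sequences named miR159a, which target GAMYB-type transcripts, and miR396g-5p, which targets growth-regulating factor transcripts, and the 3 lower ones were all of miR319, which targets TCP transcription factor transcripts. miR396g-5p, at 288 CPM, was 0.57 higher (edgeR adjusted p = 0.0244), but its value at 400 µM was 0.11 (adjusted p = 0.794). The other miR396 sequences were not called. They were ccl-miR396 at 11706 CPM (0.23, adjusted p = 0.271), scaffold_1_132 at 9657 CPM (−0.11, 0.551), scaffold_1_2219 (−0.23, 0.285) and miR396f (0.32, 0.144). The median of the 15 was 0.14, close to that of all sequences.

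The miR319 sequences with the smallest p, a miR319a and miR319g, were 0.93 and 0.64 lower in C. grandis (edgeR adjusted p = 0.00579 and 0.00751), the opposite direction to miR394. The third called miR319 sequence stood at −0.57 (adjusted p = 0.0274). The uncalled ones did not share this direction: miR319a-5p stood at 1.01 (adjusted p = 0.0648), scaffold_3_9747 at 0.18 (0.443) and scaffold_1_2402 at −0.04 (0.862). Of the sequences named miR159a, scaffold_3_17782, at 1844 CPM, was 0.54 higher (edgeR adjusted p = 0.0118), while the more abundant scaffold_3_17340, at 76997 CPM, had a value of 0.14 (adjusted p = 0.431). The call of scaffold_3_17782 was lost without C. grandis at 400 µM replicate 2, C. grandis at 10 µM replicate 2 or 3, any C. sinensis library at 400 µM, or C. sinensis at 10 µM replicate 1 (0.25 to 0.40). At 400 µM that miR159a was 0.75 higher and miR319a 0.92 lower, and at 10 µM miR396g-5p was 1.04 higher and miR319a 0.93 lower (edgeR adjusted p = 0.0240, 0.0454, 0.0144 and 0.0454). The call of miR159a at 400 µM was lost without the libraries just named or C. grandis at 400 µM replicate 3 (0.35 to 0.71). That of miR319a at 400 µM was lost without C. grandis at 400 µM replicate 1 or 3, C. sinensis at 400 µM replicate 2 or C. sinensis at 10 µM replicate 2 or 3 (−0.83 to −1.15). At 10 µM miR396g-5p lost its call without C. grandis replicate 2 or C. sinensis replicate 1 of that level (0.80 and 0.74), and miR319a without C. grandis at 400 µM replicate 1, C. grandis at 10 µM replicate 1 or 2 or any C. sinensis library at 10 µM (−0.73 to −1.03).

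**Figure D4:**
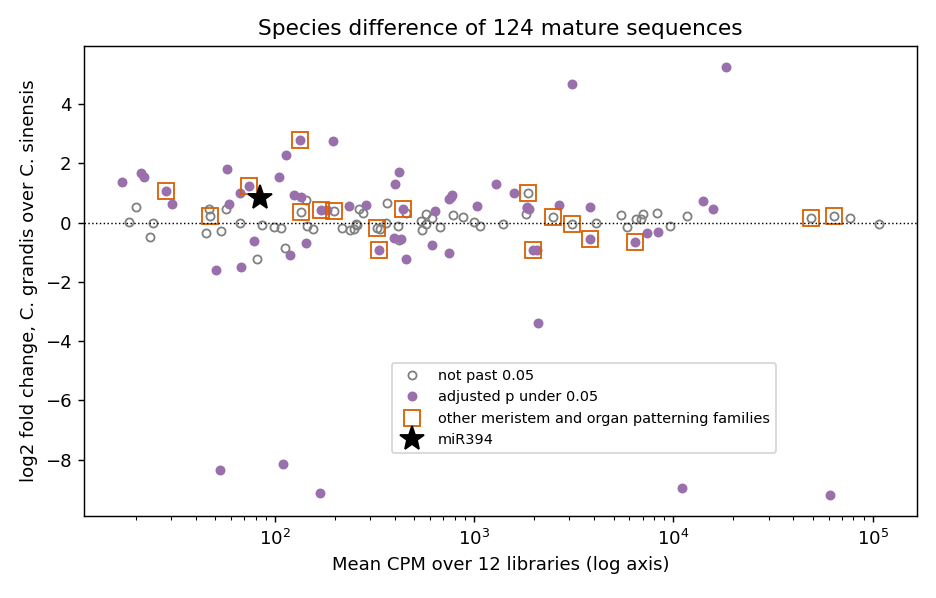
log2 fold change of C. grandis over C. sinensis, averaged over both boron levels, against mean CPM (log axis) for the 124 distinct sequences tested; filled points have an adjusted p under 0.05, orange squares mark the other meristem and organ patterning families and the star marks miR394. miR394 lies at 83.7 CPM and 0.83, above the median sequence at 0.16 and with 22 sequences above it.

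The authors' deposited target table holds 39 predicted target entries, of which 0 name miR394 and 0 carry an F-box annotation, so the level of a citrus LCR transcript or its pairing with miR394 was not analysed here.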

How the data were processed

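The 12 libraries were made with a TruSeq kit and sequenced single-end on an Illumina HiSeq, per the labels' protocols. The submitters' processing notes name DESeq but no version. The aligner, the miRNA caller and the genome build are not given in the sources used here. The deposited expression table holds raw counts per miRNA entry, and 73 of its 172 entries share a mature sequence with another. A hairpin prediction score, coordinates and sequences come from the deposited list of identified miRNAs. The deposited tables of boron-responsive miRNAs, with the authors' log2 fold changes and p-values, and of targets were used only to look up miR394.

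The test was edgeR 4.0.16 in R 4.3.3 on these counts: trimmed-mean scaling, filterByExpr at a count minimum of 10 (170 entries kept), a quasi-likelihood fit of 4 group means over 12 libraries, two-sided, and a call needed an adjusted p (Benjamini-Hochberg over all 170 entries) under 0.05. Standard errors are approximate, from the log2 fold change and the root of F, and log2 CPM uses a prior count of 2. The biological coefficient of variation was 28.1%. Mature and star strands were folded together with ViennaRNA 2.7.2. Described were miR394, the 5 sequences most correlated with it, and up to 3 called members per list and comparison. The members and lists were chosen with earlier results of these data known. Alternatives were scaling by median of ratios or by totals, DESeq2 1.42.0, other filters, only the groups compared, a replicate block and each library left out. A further alternative kept 1 entry per distinct sequence, that with the most reads.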

Additional observations from a re-analysis of the deposited data

How the results depend on the processing

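The species difference of miR394 averaged over both levels lay between 0.48 and 0.93 (log2) and stayed above 0 under every alternative run. With 1 library left out it ran from 0.48 to 0.93, and without one of 6 libraries it lost its call. At 400 µM the difference stayed above 0 and passed in 5 of 20 alternatives. It missed the threshold with median-of-ratios scaling (0.87, adjusted p = 0.0744), DESeq2 (0.87, 0.0657), no filter or a CPM minimum of 10 (0.72 and 0.118 in both), 1 entry kept per sequence (0.96, 0.0637) and only the groups compared (0.84, 0.120), and ran from 0.60 to 1.09 with 1 library left out. The median of all sequences at 400 µM, 0.15, was −0.025 with median-of-ratios and 0.098 with total-count scaling and between −0.21 and 0.22 with 1 library left out, and relative to that median miR394 was 0.89 higher in C. grandis with all libraries and 0.47 to 1.07 higher under the alternatives (averaged over both levels 0.66, and 0.46 to 0.78). The causes were not tested. The difference at 10 µM passed in 0 of 20 alternatives (0.23 to 0.83 with 1 library left out). The boron difference in C. grandis ran from 0.19 to 0.59, that averaged over species from 0.09 to 0.38 and the difference of responses from 0.07 to 0.48, none of them called. In C. sinensis the boron difference was −0.000466 with only the groups compared, −0.017 and −0.077 without C. sinensis replicate 1 at 400 or 10 µM, and ran from −0.077 to 0.23 with 1 library left out.

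The number of entries called for boron in C. grandis, 2, was 4 with median-of-ratios or total-count scaling, 5 with DESeq2, 0 with only the groups compared, and 0 to 8 with 1 library left out. For the difference of responses, 0, it was 1 with median-of-ratios scaling, the CPM minimum or 1 entry kept per sequence, 2 with total-count scaling, DESeq2 or no filter, and 0 to 2 with 1 library left out. For boron averaged over species, 1, it was 2 with total-count scaling, no filter or the CPM minimum, 6 with DESeq2, and 0 to 5 with 1 library left out. For boron in C. sinensis it was 0 under every alternative, DESeq2 included. Species calls with 1 library left out were 23 to 49 at 10 µM (48 with all), 19 to 62 at 400 µM (49) and 53 to 84 averaged (93), and with merged sequences they were 28 at 400 µM and 55 averaged. With each sequence counted once in the library total, miR394 stood at 220 CPM in C. grandis at 400 µM, 181 in C. grandis at 10 µM, 104 in C. sinensis at 400 µM and 95.5 in C. sinensis at 10 µM.

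Equal replicate numbers were not taken to pair libraries: their deviations correlated at −0.12, −0.23 and 0.20 across boron levels in C. grandis, 0.40, 0.24 and 0.22 in C. sinensis, −0.05, 0.02 and −0.15 between species at 10 µM and 0.00, −0.05 and 0.30 at 400 µM. In C. sinensis each library correlated best with its own number across boron levels, a hint from the data and not from the design. With a replicate block miR394 kept its calls (0.96 at 400 µM, adjusted p = 0.0367, and 0.79 averaged, adjusted p = 0.0133), and the entries called were 2 for the difference of responses and 2 for boron averaged over species. The block ended the calls of miR319g at 10 µM (adjusted p = 0.0603) and miR319a at 400 µM (0.0546). miR171b-3p at 400 µM lost its call with no filter, the CPM minimum or only the groups compared. Its edgeR adjusted p was then 0.0639, 0.0634 and 0.102. Under the same settings miR159a (scaffold_3_17782) lost its call at 400 µM (0.118, 0.118 and 0.0792). Averaged over both levels, miR159a lost it with no filter or the CPM minimum (0.0957 and 0.0953). At 10 µM miR319g lost its call with total-count scaling (0.0568) and miR319a with only the groups compared (0.0551). Groups of 3 libraries and 20 to 161 miR394 reads per library limit what could be seen.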
